A study of Homo sapiens with 6 samples.

Results

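The EGFR family and its ligands were described here through 10 genes. They are the receptors EGFR, ERBB2 and ERBB3, the ligands AREG, EREG, HBEGF, TGFA, BTC and NRG1, and the receptor inhibitor ERRFI1. They were chosen by name, with earlier results of these data known. All 10 were found among the 65198 gene rows by Ensembl identifier through GENCODE 29. The cells were MDA-MB-231, a human breast cancer line labelled basal-like, grown in DMEM/F-12 medium with serum. One derivative carried a tetracycline-inducible short hairpin against the long non-coding RNA HOTAIR (Tet-shHOTAIR, here shHOTAIR) and the other an inducible hairpin of scrambled sequence (Tet-shCtrl, here shCtrl). Both received doxycycline at 1 µg/ml for 96 h, so no library came from cells without the drug. Each group had 3 independent repeats of 1 derivative, with no word on whether it was a single clone, and p-values therefore compare repeats of one derivative with repeats of the other.

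The receptors of this family are tyrosine kinases that pair in the cell membrane when a ligand binds. EGFR binds amphiregulin (AREG), epiregulin (EREG), HB-EGF (HBEGF), TGF-alpha (TGFA) and betacellulin (BTC), while ERBB3 binds neuregulins such as the products of NRG1. ERBB2 has no known ligand of its own and acts as a partner, and ERBB3 has a weak kinase and signals mainly through its partners. The ligands are made as membrane-anchored precursors that metalloproteases of the ADAM family cut free. ERRFI1 (also called MIG6) is a cytoplasmic protein that binds the kinase domains of the family and inhibits them, and its gene is itself induced by growth factor signalling. In basal-like breast cancer cells EGFR is commonly abundant and ERBB2 is not amplified.

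Levels are in FPKM, fragments scaled to transcript length and library size, so levels of different genes can be compared per length. Fragment totals were not analysed here. Judged from the steps between low values, 1 fragment was worth 0.812 and 0.839 times as much FPKM in shCtrl 2 and 3 as in shCtrl 1. In the shHOTAIR libraries it was worth 0.595 to 0.717 times as much, so the same FPKM of a gene rested on more fragments there. Summed FPKM also differed, at 2224150 to 2569500 in shCtrl and 1620980 to 1820770 in shHOTAIR, and total depth was not compared. Protein-coding genes that were tested had a median of 19.96 to 20.5 FPKM per library. HOTAIR itself did not exceed 0.0132 FPKM in any library and was listed at 0 in shCtrl 1, shHOTAIR 1 and shHOTAIR 2, so the labels could not be checked against the targeted gene. All 6 markers listed for this line (VIM, CD44, KRT8, KRT18, AXL and SNAI2) were at 7.83 FPKM or more in every library. Their levels differed between the groups except for CD44, which did not pass. VIM fell from 948 ± 37.1 to 393 ± 27.3 FPKM (limma adjusted p = 0.000616). SNAI2 rose from 9.03 ± 1.18 to 25.3 ± 1.73 FPKM (limma adjusted p = 0.00116), and KRT8, KRT18 and AXL were also higher in shHOTAIR. ESR1, PGR, CDH1 and EPCAM did not exceed 0.114 FPKM. The 7 fibroblast markers summed to 2.72 to 3.43 FPKM in shCtrl and 4.48 to 5.95 FPKM in shHOTAIR, the 4 endothelial markers to 1.57 to 1.97 and 2.23 to 3.00 FPKM, and the 5 leukocyte markers to 0.839 to 1.58 and 0.392 to 0.829 FPKM. Of the fibroblast markers COL1A1 alone passed (1.33 ± 0.251 to 3.51 ± 0.282 FPKM, limma adjusted p = 0.00572), and DCN, LUM, COL1A2 and PDGFRB had lower means in shHOTAIR than in shCtrl. COL1A1, PDGFRB and KDR were the only ones of these 16 with a mean of at least 1 FPKM, and the part of other cells in the results was not tested.

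Of the 10 genes, 8 reached the mean of 1 FPKM over the libraries that was required for the test. EGFR, HBEGF and TGFA were higher in shHOTAIR, and NRG1 and ERRFI1 were lower. ERBB2, ERBB3 and AREG did not pass the test, and EREG and BTC were below the required mean. The test was limma on log2(FPKM + 1) with Benjamini-Hochberg adjustment over all genes and a threshold of 0.05. It called 5 of the 8, where 23.8% of all 15934 genes tested passed (11.5% higher and 12.4% lower). The groups did not overlap for 6 of the 8, against 43.0% of all genes tested. The median absolute log2 change of the 8 was 0.75, against 0.24 over all genes tested. Because the genes were chosen with earlier results of these data known, these comparisons are not a test of the family.

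**Figure D1:**
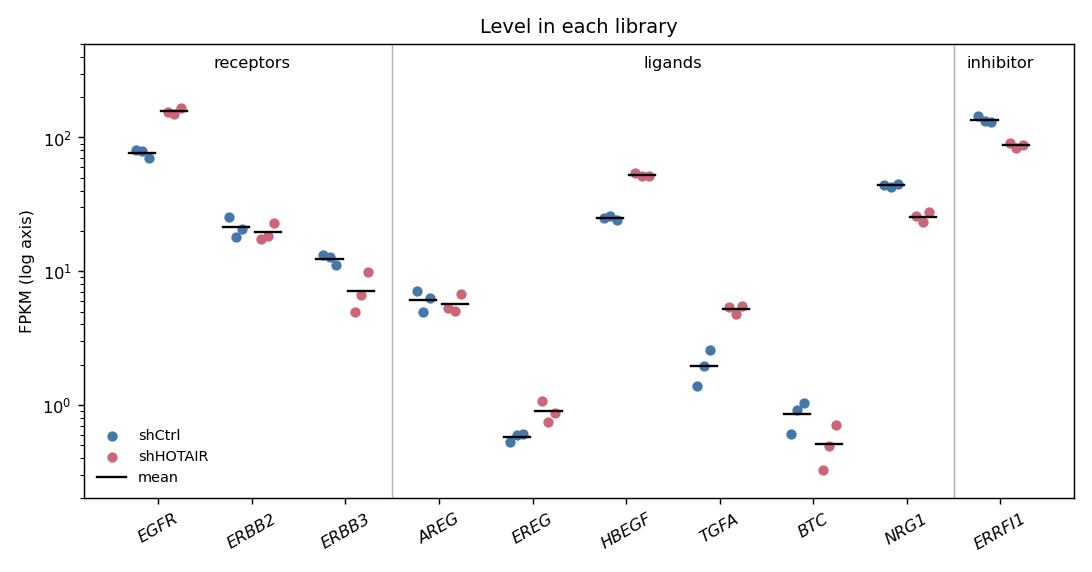
FPKM of each of the 10 genes in each library, on a log axis, with shCtrl and shHOTAIR side by side and the group mean as a bar. EGFR, HBEGF and TGFA lie higher in all 3 shHOTAIR libraries than in any shCtrl library, and NRG1 and ERRFI1 lie lower.

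The upstream stretches of EGFR, HBEGF and ERRFI1 are shown because these genes were abundant and changed in opposite directions, and because their upstream windows lay mostly or wholly outside exons. They end at the RefSeq start of the gene, or at the first base of a GENCODE exon where that comes earlier (HBEGF). Both strands were searched for the TATA box (TATAAA), the CCAAT box (CCAAT), the GC box (GGGCGG), the AP-1 motif (TGACTCA) and the cyclic AMP response element (TGACGTCA), and capitals mark every match. The sequences are from RefSeq on GRCh38.p14, written 5′ to 3′ along the gene, for EGFR at chr7:55018767-55019016 (plus strand), HBEGF at chr5:140346632-140346853 (minus strand) and ERRFI1 at chr1:8026310-8026559 (minus strand).
EGFR: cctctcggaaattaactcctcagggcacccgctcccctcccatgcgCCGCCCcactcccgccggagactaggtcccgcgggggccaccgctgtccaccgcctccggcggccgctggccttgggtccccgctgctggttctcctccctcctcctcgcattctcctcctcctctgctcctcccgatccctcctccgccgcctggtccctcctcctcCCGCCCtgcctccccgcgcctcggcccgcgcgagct
HBEGF: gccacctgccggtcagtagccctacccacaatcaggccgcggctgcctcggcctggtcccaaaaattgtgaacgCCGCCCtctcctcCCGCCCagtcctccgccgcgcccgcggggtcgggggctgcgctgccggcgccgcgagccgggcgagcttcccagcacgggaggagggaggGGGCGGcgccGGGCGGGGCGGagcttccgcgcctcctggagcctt
ERRFI1: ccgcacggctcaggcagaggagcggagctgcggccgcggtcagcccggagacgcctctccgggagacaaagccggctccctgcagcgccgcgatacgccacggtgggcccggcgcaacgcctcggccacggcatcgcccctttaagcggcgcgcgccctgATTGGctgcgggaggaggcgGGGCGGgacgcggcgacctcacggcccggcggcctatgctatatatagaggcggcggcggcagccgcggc

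All 3 stretches were rich in G and C, at 73.6% for EGFR, 76.1% for HBEGF and 75.2% for ERRFI1, against a median of 58.0% over 35116 RefSeq windows of 250 bases. GC boxes, the sites known for SP1-type factors, matched at 2 places in EGFR, 5 in HBEGF and 1 in ERRFI1, where the last 2 in HBEGF share a G. At least 1 GC box was found in 42.6% of all windows of 250 bases and in 39.2% of windows cut to the 222 bases shown for HBEGF. ERRFI1 also held 1 CCAAT box, written ATTGG on the strand shown, which occurred in 32.0% of windows. The exact letters searched for the TATA box (TATAAA), the AP-1 motif and the cyclic AMP response element were not in these windows. Other forms of the TATA box were not searched for, and the ERRFI1 stretch holds the run tatatata near its end.

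EGFR (ENSG00000146648, chromosome 7, 55019021 to 55211628 on GRCh38, plus strand) was the most abundant receptor of the family in every library. Its level was 80.9, 78.7 and 70.4 FPKM in shCtrl 1, 2 and 3 and 155, 150 and 165 FPKM in shHOTAIR 1, 2 and 3. Every shHOTAIR library was above every shCtrl library, and the group means of 76.7 ± 5.56 and 157 ± 7.96 FPKM (SD, n = 3 each) differed 2.04-fold. The log2 change was 1.02 (SE 0.0733, limma adjusted p = 0.0011), and 2.95% of protein-coding genes tested had a larger absolute change. Among these genes EGFR stood at the 82.5th percentile of level in shCtrl and at the 92.2nd in shHOTAIR. EGFR-AS1, a short antisense gene inside the EGFR span, was at 1.90 to 2.23 FPKM in shCtrl and 3.32 to 4.35 FPKM in shHOTAIR (limma adjusted p = 0.0139). No source used here states whether strand was used in counting, so reads of EGFR and EGFR-AS1 cannot be told apart.

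The genes around EGFR were also higher in shHOTAIR. Its 50 nearest tested protein-coding genes, which span 22.4 Mb, had a median log2 change of 0.36, and 25 of them were higher and 3 lower. The 27 at lower coordinates had a median of 0.45 and the 11 within 5 Mb at higher coordinates one of 0.31, while the 12 beyond that, at 9.22 to 11.2 Mb, had one of -0.06. On either side of EGFR stood SEC61G, a subunit of the protein translocation channel, with a log2 change of 0.47, and LANCL2 with 0.76 (limma adjusted p = 0.0152 and 0.0136). When each library was centred on the median deviation of these 50 genes, the log2 change of EGFR was 0.68 (limma adjusted p = 0.0036). The number of gene copies was not measured, and its part in the result was not tested.

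ERBB2 (ENSG00000141736, chromosome 17, 39687914 to 39730426, plus strand) was at 25.5, 18.1 and 20.5 FPKM in shCtrl 1, 2 and 3. In shHOTAIR 1, 2 and 3 it was at 17.3, 18.4 and 22.9 FPKM. The groups overlapped, and the log2 change of -0.12 (95% interval -0.51 to 0.27) did not pass the test (limma adjusted p = 0.618). The level of ERBB2 was near the middle of the protein-coding genes tested, at the 51.2nd percentile in shCtrl and the 49.1st in shHOTAIR. MIEN1, a neighbour on the opposite strand whose annotated span overlaps that of ERBB2, fell from 16.1 to 10.2 FPKM (limma adjusted p = 0.00694).

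ERBB3 (ENSG00000065361, chromosome 12, 56076799 to 56103505, plus strand) was at 13.2, 12.7 and 11.1 FPKM in shCtrl 1, 2 and 3. It was at 4.94, 6.69 and 9.86 FPKM in shHOTAIR 1, 2 and 3. The groups did not overlap, but the shHOTAIR libraries were far apart, and the log2 change of -0.75 (95% interval -1.31 to -0.18) did not pass (limma adjusted p = 0.066). Without shHOTAIR 3 it was -0.97 and passed (0.024), and over the other alternatives the adjusted p was 0.0553 to 0.253. AC034102.2, a gene on the same strand whose span overlaps that of ERBB3, was at 15.5 FPKM in shCtrl 1 and 19.7 FPKM in shHOTAIR 1 and at or next to 0 in the other 4 libraries. ERBB3 was lowest in shHOTAIR 1, while shCtrl 1 was its highest library. Without these 2 libraries, an alternative chosen after seeing the data, the log2 change was -0.49 (limma adjusted p = 0.253).

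In all 6 libraries the order of the receptors was EGFR, then ERBB2, then ERBB3. The distances between them grew in shHOTAIR. EGFR stood at 3.17, 4.35 and 3.43 times the level of ERBB2 in shCtrl 1, 2 and 3 and at 8.93, 8.14 and 7.23 times in shHOTAIR 1, 2 and 3. It stood at 6.15 to 6.36 times the level of ERBB3 in shCtrl and at 16.8 to 31.3 times in shHOTAIR. These and the other ratios of levels were chosen after the values were seen and are given without a test. ERBB4, the remaining receptor of the family, had means of 0.0792 FPKM in shCtrl and 0.0763 FPKM in shHOTAIR.

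HBEGF (ENSG00000113070, chromosome 5, 140332843 to 140346631, minus strand) had the smallest adjusted p of the 10 genes. Its precursor is also known as the diphtheria toxin receptor, and its mature form binds heparin. The level was 25.1, 26.0 and 24.4 FPKM in shCtrl 1, 2 and 3 and 53.8, 51.9 and 51.6 FPKM in shHOTAIR 1, 2 and 3. The 3 libraries of each group lay close together and far from the other group. The means of 25.2 ± 0.820 and 52.4 ± 1.22 FPKM (SD, n = 3 each) differed 2.08-fold, with a log2 change of 1.03 (SE 0.0485, limma adjusted p = 0.000406). The 50 nearest genes had a median log2 change of -0.15, and 3 of them were higher and 6 lower. The rise of HBEGF was thus not shared by most of its surroundings, and its neighbours PFDN1 (-0.13) and ANKHD1 (-0.11) did not pass.

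TGFA (ENSG00000163235, chromosome 2, 70447280 to 70554193, minus strand) rose from a low level. It was at 1.39, 1.94 and 2.58 FPKM in shCtrl 1, 2 and 3 and at 5.40, 4.79 and 5.48 FPKM in shHOTAIR 1, 2 and 3. The shCtrl libraries were unequal, but the groups stood clearly apart. The means of 1.97 ± 0.595 and 5.22 ± 0.374 FPKM (SD, n = 3 each) differed 2.65-fold, and the log2 change was 1.09 (SE 0.167, limma adjusted p = 0.00845). The added 1 shrinks the change of such a low gene, which was 1.40 with a pseudocount of 0.1. The 50 nearest genes had a median log2 change of -0.11.

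NRG1 (ENSG00000157168, chromosome 8, 31639386 to 32767959, plus strand), which encodes a ligand of ERBB3 and ERBB4, fell. Its level was 44.4, 42.6 and 45.3 FPKM in shCtrl 1, 2 and 3 and 26.0, 23.3 and 27.5 FPKM in shHOTAIR 1, 2 and 3. No shHOTAIR library reached the lowest shCtrl library. The means of 44.1 ± 1.39 and 25.6 ± 2.15 FPKM (SD, n = 3 each) gave a 1.72-fold lower level, with a log2 change of -0.76 (SE 0.0736, limma adjusted p = 0.0022). Its neighbours WRN (log2 change -0.01) and FUT10 (-0.05) did not pass, and the 50 nearest genes had a median of -0.08.

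AREG (ENSG00000109321, chromosome 4, 74445134 to 74455009, plus strand), EREG and BTC lie close together on chromosome 4. AREG was at 7.11, 4.98 and 6.33 FPKM in shCtrl 1, 2 and 3 and at 5.33, 5.07 and 6.74 FPKM in shHOTAIR 1, 2 and 3. The groups overlapped, and the log2 change of -0.09 (95% interval -0.47 to 0.29) did not pass (limma adjusted p = 0.72). EREG (74365143 to 74388751, plus strand) was at 0.526, 0.601 and 0.605 FPKM in shCtrl 1, 2 and 3 and at 1.08, 0.750 and 0.866 FPKM in shHOTAIR 1, 2 and 3. These groups did not overlap, although all values were low. BTC (74744759 to 74794686, minus strand) was at 0.605, 0.921 and 1.04 FPKM in shCtrl 1, 2 and 3 and at 0.328, 0.497 and 0.709 FPKM in shHOTAIR 1, 2 and 3, with overlap between the groups.

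For EREG and BTC the limma fit took in every gene with a value above 0, 36141 in number, of which 8.89% passed. The log2 change of EREG was 0.26 (95% interval -0.00 to 0.53, adjusted p = 0.237) and that of BTC was -0.30 (95% interval -0.67 to 0.08, adjusted p = 0.339), so neither passed. Exact two-sided permutation tests of their FPKM gave p = 0.1 for EREG, the smallest that 3 against 3 can give, and p = 0.2 for BTC. The stretch of chromosome 4 around AREG was higher in shHOTAIR, with a median log2 change of 0.32 over the 50 nearest genes, of which 21 were higher and 5 lower. The added 1 shrinks the changes of EREG and BTC, which were 0.62 and -0.76 with a pseudocount of 0.01 and did not pass there either. With the added 1, and centred on the region, the log2 changes were -0.02 for EREG, -0.37 for AREG and -0.58 for BTC, and none passed (limma adjusted p = 0.924, 0.189 and 0.0509). Within 0.71 Mb of AREG the chemokine genes CXCL8, CXCL1, CXCL3 and CXCL2 fell, with log2 changes of -1.14, -1.22, -1.26 and -1.12 (limma adjusted p = 0.0163, 0.00698, 0.00468 and 0.0103).

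**Figure D2:**
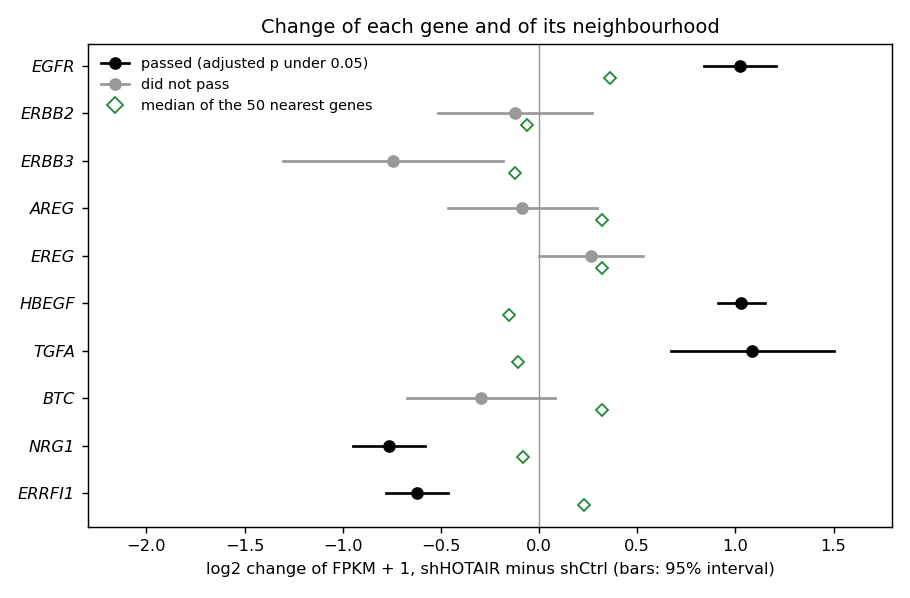
Log2 change of FPKM + 1 of each gene, shHOTAIR minus shCtrl, with its 95% interval from limma (black, passed; grey, did not pass) and, as open diamonds, the median log2 change of its 50 nearest tested protein-coding genes. The diamonds of EGFR, ERRFI1 and the 3 ligands on chromosome 4 lie between 0.23 and 0.36, and ERRFI1 lies on the other side of 0 from its diamond.

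The order of the ligands by level differed between the groups. In shCtrl it was NRG1, HBEGF, AREG, TGFA, BTC and EREG, where the ranges of neighbours in the order did not overlap except for BTC and EREG, which met at 0.605 FPKM. In shHOTAIR it was HBEGF, NRG1, AREG, TGFA, EREG and BTC, where the ranges of AREG (5.07 to 6.74 FPKM) and TGFA (4.79 to 5.48 FPKM) overlapped and those of the other neighbours did not. HBEGF was at 0.565, 0.611 and 0.538 times the level of NRG1 in shCtrl 1, 2 and 3 and at 2.07, 2.23 and 1.88 times in shHOTAIR 1, 2 and 3. NRG1 was the most abundant ligand in every shCtrl library and HBEGF in every shHOTAIR library. The summed level of all 6 ligands rose from 78.8 ± 1.63 to 90.4 ± 3.60 FPKM (SD, n = 3 each). The groups did not overlap, at 77.0 to 80.2 FPKM in shCtrl and 86.2 to 92.9 FPKM in shHOTAIR. In this sum the fall of NRG1 offset part of the rise of HBEGF and TGFA. The sum of the 3 receptors went from 110 ± 8.84 to 183 ± 12.9 FPKM.

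The ligands of the family that are not among the 10 genes were scarce. EGF, the founding ligand, was at a mean of 1.02 ± 0.478 FPKM in shCtrl and 2.20 ± 0.608 FPKM in shHOTAIR (SD, n = 3 each) and did not pass (log2 change 0.67, limma adjusted p = 0.109). EPGN, NRG2, NRG3, NRG4 and ERBB4 were below a mean of 1 FPKM over the libraries, and none passed in the fit of all genes above 0.

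ERRFI1 (ENSG00000116285, chromosome 1, 8004404 to 8026308, minus strand) was the most abundant of the 10 genes in shCtrl and second to EGFR in shHOTAIR. Its level was 144, 133 and 130 FPKM in shCtrl 1, 2 and 3 and 91.5, 84.0 and 87.2 FPKM in shHOTAIR 1, 2 and 3. All 3 shHOTAIR libraries were below all shCtrl libraries. The means of 135 ± 7.82 and 87.6 ± 3.77 FPKM (SD, n = 3 each) gave a 1.55-fold lower level, with a log2 change of -0.62 (SE 0.0632, limma adjusted p = 0.00247). The surrounding genes moved the other way, with a median log2 change of 0.23 over the 50 nearest, of which 15 were higher and 1 was lower. Centred on the region, the log2 change of ERRFI1 was -0.88 (limma adjusted p = 0.00204). Its nearest tested neighbours were PARK7 (log2 change 0.26) and RERE (-0.22), and neither passed.

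The receptor and its inhibitor thus moved in opposite directions in the same libraries. EGFR was at 0.561, 0.594 and 0.543 times the level of ERRFI1 in shCtrl 1, 2 and 3 and at 1.69, 1.78 and 1.90 times in shHOTAIR 1, 2 and 3. The ratio was below 1 in every shCtrl library and above 1 in every shHOTAIR library.

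**Figure D3:**
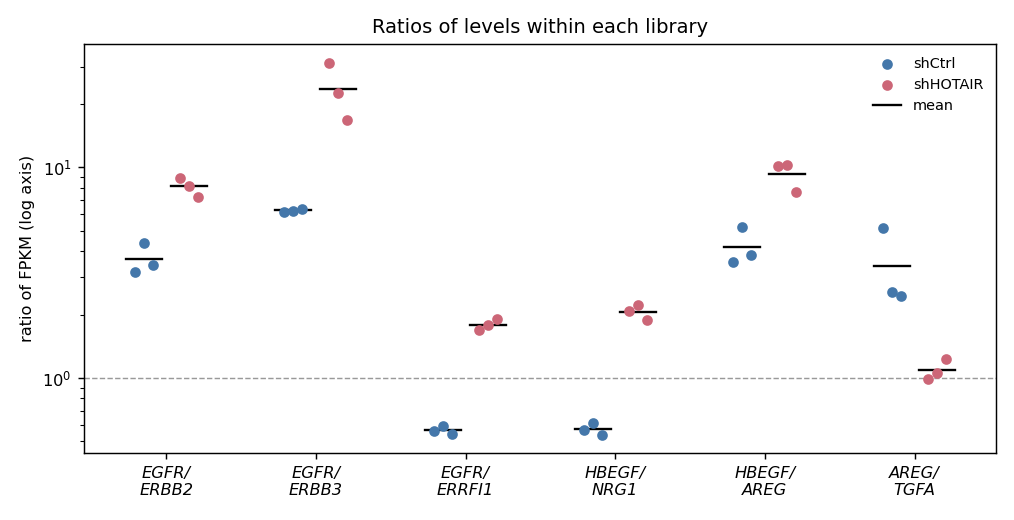
Ratios of FPKM between pairs of genes within each library, on a log axis, with the group mean as a bar and a dashed line at equal levels. EGFR over ERRFI1 and HBEGF over NRG1 lie below 1 in all shCtrl libraries and above 1 in all shHOTAIR libraries.

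**Figure D4:**
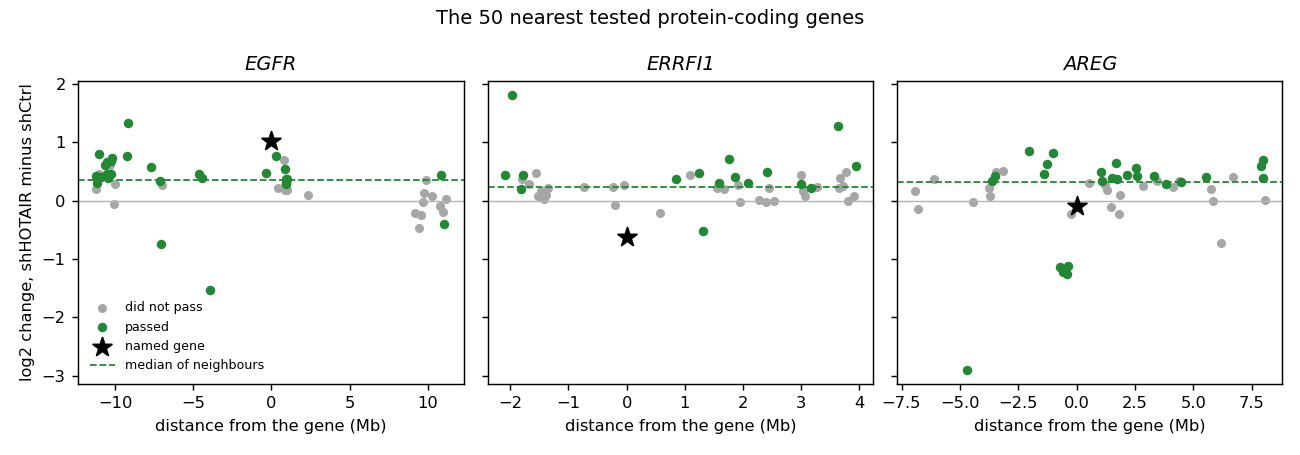
Log2 change of the 50 nearest tested protein-coding genes against their distance in Mb from EGFR, ERRFI1 and AREG, with genes that passed in green, the named gene as a star and the neighbours' median as a dashed line. EGFR lies above its neighbours' median of 0.36, ERRFI1 below its median of 0.23 and AREG below its median of 0.32.

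The protein-coding genes whose pattern over the 6 libraries was nearest to that of EGFR were CLDND1, HIF1A and RAB9B. Likeness was the root mean square distance of log2(FPKM + 1), each gene centred on its own mean, and was 0.0431, 0.0541 and 0.0556 among 11586 genes compared. HIF1A, the oxygen-regulated subunit of hypoxia-inducible factor, was at 216 ± 9.41 FPKM in shCtrl and 415 ± 12.3 FPKM in shHOTAIR (SD, n = 3 each). CLDND1 was at 76.8 ± 4.35 and 158 ± 11.5 FPKM.

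Genes that act before and after the receptors were counted in 9 lists written from general knowledge, with 134 genes in all. Earlier results of these data were known when the lists were chosen, so their shares are not a test of the pathway. Of the 118 tested, 23 were higher and 21 lower, or 37.3% against 23.8% of all genes tested, the share to set beside each list's own, with a median log2 change of 0.00 against -0.03. The count was 25 without shHOTAIR 2 and 28 to 35 without any other library.

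Among genes known to be induced by EGF, early or with delay, more fell than rose. Of the 19 tested, 9 were lower and 3 higher (63.2%), with a median log2 change of -0.46. The count of 12 was 8 without shCtrl 1, shCtrl 3, shHOTAIR 2 or shHOTAIR 3 and 9 without either of the other libraries. With regional centring it was 12 as well, but the split by direction was less uneven. The calls of CCND1 and FOS, both lower, were lost there (limma adjusted p = 0.849 and 0.0511). VEGFA and PLAUR passed there as higher, with log2 changes of 0.91 and 0.40 (limma adjusted p = 0.0131 and 0.0238). The zinc finger factor EGR1 fell from 11.8 ± 0.482 to 3.75 ± 0.346 FPKM, a log2 change of -1.44 (limma adjusted p = 0.000589), and KLF6 from 46.2 ± 1.44 to 20.5 ± 0.694 FPKM (-1.14, 0.000406). With regional centring the log2 change of KLF6 was -0.46 (limma adjusted p = 0.00625). MYC (-0.86), ATF3 (-1.33) and JUNB (-0.92), named after their values were seen, also fell. The other lower genes were LIF, IER3, CCND1 and FOS, and each lost its call without at least 1 single library. CCND1 and FOS lost theirs without any 1 library (limma adjusted p up to 0.109 and 0.132). The AP-1 subunit JUN rose from 48.8 ± 0.950 to 63.8 ± 2.32 FPKM (log2 change 0.38, or 0.23 with regional centring) and PHLDA1 by a log2 change of 0.41. ETV5, the most abundant gene of this list over the 6 libraries, at means of 230 and 307 FPKM, did not pass (limma adjusted p = 0.164).

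Among the 19 receptor antagonists and feedback inhibitors of ERK, 6 were higher and 2 lower (42.1%), with a median log2 change of 0.10. The count of 8 was 4 without shCtrl 2 or shHOTAIR 2 and 5 without shCtrl 1, shCtrl 3 or shHOTAIR 3. The ERK phosphatase DUSP4 rose from 59.8 ± 1.13 to 108 ± 2.19 FPKM, with a log2 change of 0.84 (limma adjusted p = 0.00049), and SPRY1, a Sprouty inhibitor, from 39.6 ± 0.409 to 59.3 ± 3.65 FPKM (log2 change 0.57). The phosphatases DUSP5 and DUSP6 fell, DUSP5 from 72.2 ± 7.20 to 47.5 ± 2.17 FPKM (log2 change -0.59) and DUSP6 by a log2 change of -0.27. The calls of SPRY1 and DUSP5 were lost with regional centring (adjusted p = 0.0941 and 0.301). That of DUSP6 was lost without shCtrl 1, shCtrl 2, shHOTAIR 2 or shHOTAIR 3 (up to 0.0821).

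The proteases that release the ligands were all expressed. Of 9 sheddases and their iRhom partners 2 were higher and none lower (22.2%, near the share of all genes), with a median log2 change of 0.15. ADAM19 rose from 3.14 ± 0.268 to 7.22 ± 0.211 FPKM, with a log2 change of 0.99 (limma adjusted p = 0.00137). ADAM10, the sheddase known for EGF and BTC, had a log2 change of 0.32 whose call was lost without any library but shHOTAIR 3 (limma adjusted p up to 0.127). ADAM17, the main sheddase known for AREG, HBEGF and TGFA and named for that role, did not pass, at 29.5 ± 0.225 FPKM in shCtrl and 31.7 ± 1.01 FPKM in shHOTAIR (limma adjusted p = 0.18). ADAM9 was the most abundant, at 124 ± 8.27 and 138 ± 4.58 FPKM, and did not pass either.

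Of 17 adaptors and proximal effectors 4 were higher and 2 lower (35.3%), with a median log2 change of 0.05. The docking protein gene GAB2 fell from 16.7 ± 1.09 to 5.92 ± 1.07 FPKM, with a log2 change of -1.36 (limma adjusted p = 0.00195). SOS1, a RAS exchange factor, rose from 32.8 ± 0.149 to 55.2 ± 5.78 FPKM (log2 change 0.73) and the adaptor SHC1 from a mean of 90.8 to 115 FPKM (0.34). The call of SHC1 was lost with the replicate number as a block (limma adjusted p = 0.0568). CRK had a log2 change of -0.19 whose call was lost with regional centring (adjusted p = 0.467) and without any 1 library (up to 0.0953). The phosphatase PTPN11 was the most abundant of the list, at 165 ± 2.87 and 170 ± 8.87 FPKM, and did not pass. The count of 6 was 3 without shCtrl 1 or shHOTAIR 2.

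Of 15 RAS-ERK genes 1 was higher and 2 were lower (20.0%, near the share of all genes), with a median log2 change of -0.11, and the count was 1 without shCtrl 1 or shCtrl 3. RRAS2 fell from 93.0 ± 6.02 to 62.5 ± 4.35 FPKM, with a log2 change of -0.57 (limma adjusted p = 0.00575). The calls of RRAS (-0.55) and RPS6KA1 (0.67) were lost without 4 and 3 single libraries, up to adjusted p of 0.0926 (shCtrl 1, shCtrl 2, shCtrl 3 or shHOTAIR 2) and 0.0546 (shCtrl 1, shCtrl 3 or shHOTAIR 3), and the log2 change of RPS6KA1 was 0.44 with regional centring. MAP2K2, the most abundant at 214 ± 15.1 and 211 ± 10.4 FPKM, did not pass. Of 12 genes of the PI3K-AKT branch 2 were higher and 2 lower (33.3%), with a median log2 change of -0.07, and the count was 1 without shCtrl 3 or shHOTAIR 2. MTOR (0.21) lost its call without any 1 library (up to 0.103) and PIK3CB (-0.24) without any but shCtrl 1 (up to 0.109), and both also lost it with regional centring, where the log2 change of MTOR turned to -0.03. AKT2 was the most abundant and did not pass (log2 change -0.09, limma adjusted p = 0.579).

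Of 16 tested genes of receptor uptake and degradation 2 were higher and 4 lower (37.5%), with a median log2 change of -0.13. The adaptor SH3KBP1, which links the ubiquitin ligase CBL to endocytosis, rose from 39.9 ± 2.28 to 71.3 ± 9.92 FPKM, with a log2 change of 0.81 (limma adjusted p = 0.0061). Its relative CD2AP fell from 38.2 ± 2.03 to 16.3 ± 3.60 FPKM, with a log2 change of -1.20 (limma adjusted p = 0.00587), which was -0.69 with regional centring (0.0321). STAM, of the endosomal sorting machinery, fell from 47.1 ± 1.73 to 25.6 ± 0.465 FPKM (log2 change -0.85), a call lost with regional centring (adjusted p = 0.244). The calls of CBLB (0.53) and HGS (-0.32) were lost without any library but shCtrl 2 (up to 0.133) and without any 1 library (up to 0.12), and that of CBLB also with regional centring (0.956). HGS was the most abundant of the list, at means of 380 and 304 FPKM. The count of 6 was 3 without shHOTAIR 2.

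Among 10 other receptor tyrosine kinases tested 3 were higher and none lower (30%). With regional centring 5 passed, of which IGF1R was lower (log2 change -0.39, limma adjusted p = 0.0252, against -0.02 without centring). The median log2 change was 0.08. EPHA2 rose from 47.4 ± 4.59 to 91.5 ± 5.48 FPKM, with a log2 change of 0.94 (limma adjusted p = 0.00196), and AXL from 139 ± 4.74 to 195 ± 3.26 FPKM (0.48, 0.00231). ROR1, named after its value was seen, was the other one that rose (log2 change 0.55), a call lost with the replicate number as a block (limma adjusted p = 0.0532). With regional centring the log2 changes of EPHA2 and ROR1 were 0.59 and 0.34, and both passed. FGFR1, the most abundant, did not pass, with 161 ± 10.2 FPKM in shCtrl and 185 ± 7.11 FPKM in shHOTAIR (limma adjusted p = 0.0745). With regional centring FGFR1 passed as higher (log2 change 0.27, limma adjusted p = 0.0309). The rise of EGFR, at a log2 change of 1.02, stood beside that of EPHA2 in size, and the difference between them was not tested.

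**Figure D5:**
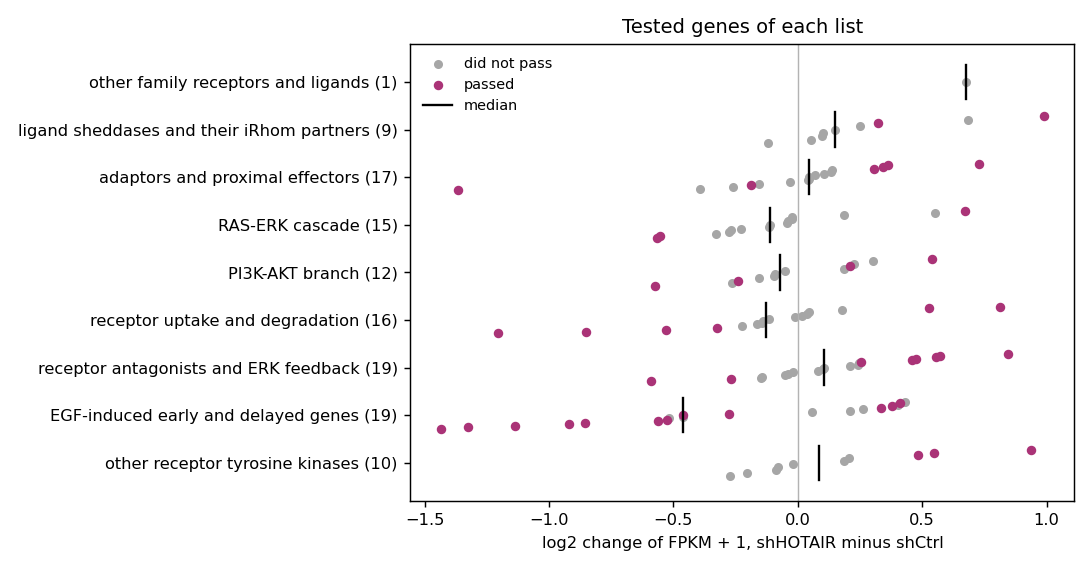
Log2 change of FPKM + 1, shHOTAIR minus shCtrl, of the tested genes of each list, with the number tested in brackets, genes that passed in purple and the median as a bar. EGF-induced genes have the lowest median, -0.46, with 9 genes that passed below 0 and 3 above.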

How the data were processed

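Poly(A) RNA of 6 libraries, 3 per hairpin, was sequenced, and libraries were grouped by their titles. The authors deposited FPKM values per gene. TopHat2 2.0.13, DESeq and the build GRCh38 are named in the submitters' processing notes without their roles; no source used here states the annotation, the filters or the strand setting. Of 65198 rows, 56807 matched GENCODE 29, which gave symbols and positions.

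The analysis used log2(FPKM + 1) with no added scaling. A mean of 1 FPKM over the libraries was required, and limma 3.58.1 in R 4.3.3 was run with an intensity trend and without a block, with a Benjamini-Hochberg threshold of 0.05. Scarcer genes were read from a second fit that took in every gene above 0. Errors are SD of FPKM, SE is that of the log2 change, and 95% intervals are limma's. The depth in fragments is unknown, so no interval for counting error is given.

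Alternatives were other pseudocounts, filters and scalings, limma without trend or with robust eBayes, the replicate number as a block, leaving out single libraries, and centring on the 50 nearest protein-coding genes. The 10 genes and the lists were chosen with earlier results of these data known. The genes named were the 10, the 2 smallest p in each direction and the most abundant gene of each list, the 3 genes nearest in pattern to EGFR and the nearest neighbours; others, such as the chemokines, overlapping genes and ADAM17, were added after values were seen. Some genes that this rule names are not reported here. Python 3.11.15 with scipy 1.17.1 and matplotlib 3.10.9 was used.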

Additional observations from a re-analysis of the deposited data

How the results depend on the processing

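EGFR, HBEGF, TGFA, NRG1 and ERRFI1 kept their direction and stayed past the threshold in all 16 alternatives, except that TGFA was not tested at a minimum mean of 5 FPKM. Without 1 library the number of genes past the threshold was 2470 to 3159 (1243 to 1554 higher, 1224 to 1605 lower) in place of 3797, and that of listed pathway genes 25 to 35 (14 to 20 higher, 11 to 15 lower) in place of 44. Between 5 and 6 of the 10 genes passed then. Centring on the region gave 2393 genes, 1125 of them lower. No pairing by replicate number was seen over all genes tested, where the deviations of same-numbered libraries correlated at -0.02, 0.01 and -0.03. AC034102.2 alone is described here as shared by number, being high only in replicate 1 of both groups. Whether same-numbered libraries were prepared together was not tested. With the number as a replicate block 1740 genes passed (825 higher, 915 lower), 23 of them listed (11 higher, 12 lower), and the 5 calls of the family stayed. Among the 10 genes and the list genes named by rule, the direction of 6 turned, of which MTOR alone had passed (log2 change 0.21). CCND1, named after its value was seen, had also passed (-0.28) and turned to 0.024 with regional centring. Without 1 library the log2 change of ERBB2 ran from -0.23 to 0.0085, that of AREG from -0.21 to 0.012 and that of MAP2K2 from -0.079 to 0.022. With regional centring it was -0.020 for EREG, 0.036 for AKT2, -0.033 for MTOR and 0.078 for MAP2K2, which was also at 0.0037 with the median of ratios and at 0.014 with quantile normalization. The cause of these changes was not tested. Unknown depth limits what can be said of EREG and BTC.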
